A study of Mus musculus with 23 samples.

Results

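The difference in gene expression between the murine glioma lines CT2A and GL261 was compared between bulk tumors and sorted tumor cells, in 15 of the 23 RNA sequencing libraries of the series. GL261 and CT2A are syngeneic lines of C57BL/6 mice that were raised with the carcinogen methylcholanthrene. The bulk group held 4 whole tumors of GL261-luc2 and 4 of CT2A-luc, which carry a luciferase reporter, from 100000 and 25000 implanted cells and harvested after 22 to 24 days. The sorted group held 4 tumors of a GL261 subline and 3 of a CT2A subline, from 200000 implanted cells each. These engineered sublines also carry luciferase, and their tumor cells were pulled from the dissociated tumor with magnetic beads. Both kinds of tumor came from adherent cultures placed in the right striatum of untreated female albino C57BL/6 mice aged 7 to 10 weeks. Sorted cells of tumors grown from neurosphere cultures of the same sublines, 3 of GL261 and 5 of CT2A, were not used in the test and are set beside it.

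The quantity tested was the interaction, the line difference (CT2A minus GL261, log2) in sorted cells minus the line difference in bulk tumors. Bulk and sorted libraries differed in subline, number of implanted cells, dissociation and selection, sequencer and read length (150 against 37 bases), and per the study's methods in library kit. These sources of an interaction cannot be told apart here. The study's legends count samples as mice, so p-values measure the spread between tumors of 1 line or subline each.

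A bulk glioma mixes tumor cells with neurons, glia, vessels and immune cells of the host brain. A gene that the host also expresses can therefore hide a difference between tumor cells, and a difference in the host cells can appear as one between the lines. In bulk tissue fewer cells of a type and less RNA per cell cannot be told apart. A transplanted line can also drift when it is engineered and passaged, and such subline changes appear in tumor cells whatever the host contributes. Oligodendrocyte lineage genes such as Sox10 and Olig2 are expressed both by many gliomas and by normal glia, while Hox genes, which set position along the body axis, are silent in the normal forebrain.

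The libraries held 34622622 to 42608400 estimated reads in bulk GL261, 9590096 to 9853530 in bulk CT2A, 7599935 to 10548568 in sorted GL261 and 8325102 to 9641749 in sorted CT2A, so that depth differed with the line in bulk. Levels are given as CPM, reads scaled to a common library size normalized by TMM, a scaling that assumes most genes do not differ. A count of 3 was worth on average 0.0779 CPM in a bulk GL261 library and 0.273 to 0.368 CPM in the other groups. The marker score of a cell type, the mean log2(CPM + 1) of its marker genes, showed how far sorting removed brain tissue. Neuron scores ran from 4.33 to 8.19 in bulk GL261 and from 5.48 to 7.59 in bulk CT2A, against 1.98 to 3.08 and 2.42 to 2.92 in the sorted groups. Macrophage scores were 5.34 to 5.83 and 5.25 to 5.76 in bulk, and 5.43 to 6.37 in sorted CT2A, so that myeloid RNA remained after the sort. In sorted GL261 they were 5.97, 5.95 and 5.07 in libraries 82, 83 and 84, and 3.58 in library 81, which stood apart.

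The line difference depended on the kind of sample for 2274 of 15845 genes tested (14.4%) by edgeR (quasi-likelihood, Benjamini-Hochberg adjusted p of 0.05). The interaction was higher for 1388 genes (8.76%) and lower for 886 (5.59%). The median interaction of all genes was 0.17 on the log2 scale, and with DESeq2 size factors, which set it to 0.00, 917 genes were higher and 1059 lower. Changes below are therefore read against this shift. In the same fit the lines differed in 4566 genes in bulk (28.8%) and in 7373 in sorted cells (46.5%), and bulk and sorted samples in 7245 genes in GL261 (45.7%) and 6446 in CT2A (40.7%). The libraries of the lines did not overlap for 32.5% of genes in bulk and 53.8% in sorted cells, and those of bulk and sorted samples for 37.8% in GL261 and 58.3% in CT2A. Without sorted GL261 library 81 the interaction was called for 2854 genes.

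The genes with an interaction fell into classes by what their line difference did. In 1233 (7.78% of genes tested) a difference was called in sorted cells only, a class named masked in bulk here. Class names state only which calls passed, and why a call was missing was not tested. In 762 (4.81%) the difference had the same direction in both and was larger in sorted cells, and in 19 (0.120%) it was larger in bulk. In 173 (1.09%) it was called in bulk only and was lost in sorted cells. In 61 (0.385%) it was called in both and was reversed. Without sorted GL261 library 81 the lost class held 272 genes and the class larger in bulk 30. Without bulk GL261 library 412 they held 278 and 56, and without sorted CT2A library 71 the lost class held 106. The remaining 26 (0.164%) were called in neither. Median absolute line differences of the masked class were 0.29 in bulk and 2.02 in sorted cells.

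**Figure D1:**
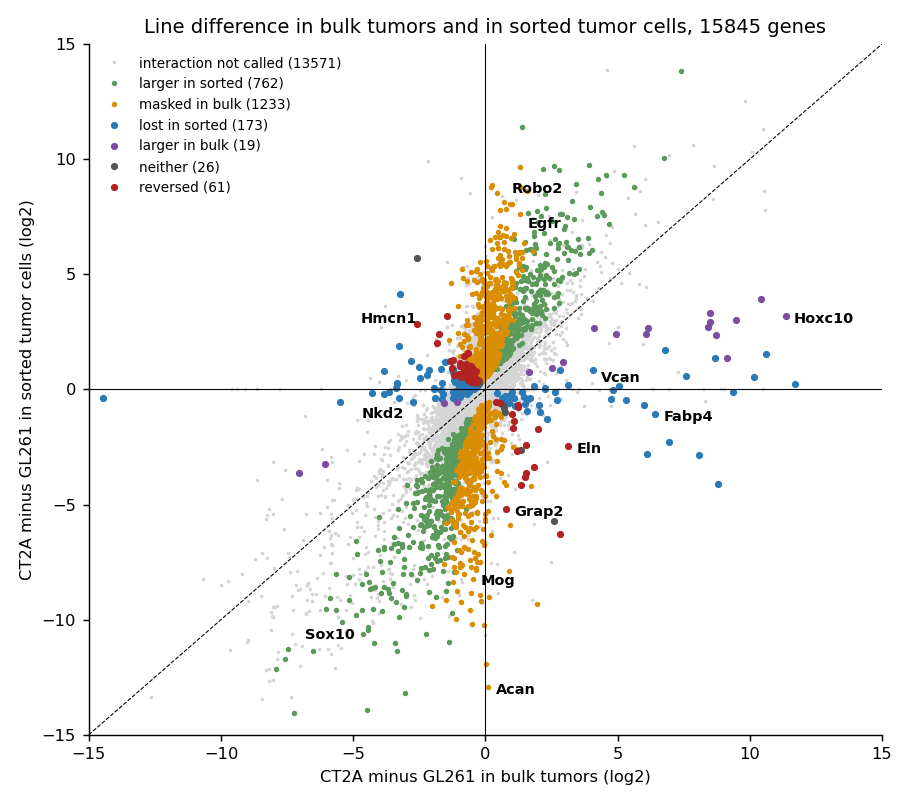
Line difference (CT2A minus GL261, log2) of 15845 genes in bulk tumors (x axis) and in sorted tumor cells (y axis), one point per gene, colored by the class of its interaction, with the dashed line marking equal differences. Masked genes lie along the vertical axis (Acan at 0.10 in bulk and -12.91 in sorted cells), lost genes along the horizontal axis (Fabp4 at 6.42 and -1.08) and reversed genes in the upper left and lower right (Eln at 3.14 and -2.47).

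The neurosphere-derived libraries, which the interaction did not use, gave a line difference for 8251 of 13733 genes tested (60.1%). Of 1158 masked genes tested there, 1010 were called and 1001 of these had the direction of the adherent sorted cells. Of 56 reversed genes tested, 38 were called, 35 with the direction of sorted cells and 3 with that of bulk. Of 161 lost genes, 51 were called, 20 with the direction they had in bulk. For comparison, 98.5% of all genes called in both sorted experiments had the same direction in both. The neurosphere-derived libraries share sublines, bead selection and 37-base reads with the adherent sorted cells, so a shared direction cannot tell these apart. Some titles of the neurosphere-derived CT2A libraries also name GL261, and their line was taken from the sample descriptions.

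Among reversed genes was Grap2, an adaptor of T cell receptor signaling (chr15:80572594-80652854, GRCm38). In bulk GL261 its level was 2.91, 2.14, 2.51 and 3.36 CPM in libraries 405, 412, 414 and 417, and in bulk CT2A 3.84, 5.04, 5.24 and 4.65 CPM in libraries 39, 40, 47 and 48. In sorted GL261 it was 169, 135, 138 and 128 CPM in libraries 81 to 84, and in sorted CT2A 3.45, 2.21 and 5.86 CPM in libraries 69 to 71. The lines did not overlap in either kind of sample, and the sorted GL261 libraries stood above all others. Grap2 was 0.78 ± 0.23 (SE) higher in CT2A in bulk on the log2 scale and -5.21 ± 0.30 in sorted cells, where CT2A was lower, an interaction of -5.99 ± 0.37 (adjusted p = 6.24e-07). It was no longer reversed with the length offset and stayed so in 12 of 15 fits without 1 library. Neurosphere-derived GL261 cells also had 44.3 to 98.8 CPM of Grap2, against 0.647 to 3.21 CPM in CT2A.

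Eln, which encodes elastin, turned the same way. Its levels were 1.13, 7.96, 4.15 and 5.36 CPM in bulk GL261 and 72.9, 32.1, 32.6 and 26.6 CPM in bulk CT2A. In sorted cells they were 14.9, 6.03, 14.5 and 8.13 CPM in GL261 and 2.38, 1.59 and 1.92 CPM in CT2A. Bulk CT2A was thus above every bulk GL261 library and sorted CT2A below every sorted GL261 library. The difference between bulk and sorted cells was called in CT2A (-4.38, adjusted p = 0.000239) and not in GL261 (1.22, adjusted p = 0.0545), and the interaction was -5.60 ± 0.80 (adjusted p = 0.000486). Slc12a3, a sodium chloride cotransporter named after its values were seen, had a line difference of 1.48 ± 0.41 in bulk and of -3.80 ± 0.53 in sorted cells.

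In the other direction, genes lower in CT2A in bulk were higher in sorted CT2A. Itm2a, a membrane protein gene, was at 71.9, 41.5, 60.6 and 43.3 CPM in bulk GL261 and 28.6, 38.2, 30.8 and 26.9 CPM in bulk CT2A. In sorted cells it was at 48.5, 42.9, 53.2 and 46.8 CPM in GL261 and at 142, 120 and 133 CPM in CT2A. The difference between sorted and bulk was 2.08 in CT2A (adjusted p = 5.76e-06) and -0.18 in GL261 (adjusted p = 0.413), and the interaction was 2.26 ± 0.26 (adjusted p = 9.64e-05). Hmcn1, a matrix protein of the hemicentin family, was at 10.4 to 16.8 CPM in bulk GL261 and 3.73 to 5.51 CPM in bulk CT2A. It was at 2.82, 5.15, 7.23 and 2.06 CPM in sorted GL261 and 13.8, 26.6 and 27.3 CPM in sorted CT2A, so that both lines moved, in opposite directions (-1.75 and 2.38). Its interaction of 4.13 ± 0.52 (adjusted p = 0.00021) missed the threshold with an offset for transcript length (3.63, adjusted p = 0.053).

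Vav3, a guanine nucleotide exchange factor, and Hapln1, a link protein that ties proteoglycans to hyaluronan, had the same pattern with smaller differences. Vav3 was at 17.8 to 27.5 CPM in bulk GL261, 8.79 to 9.79 CPM in bulk CT2A, 6.46 to 17.0 CPM in sorted GL261 and 18.8 to 28.3 CPM in sorted CT2A, an interaction of 2.18 ± 0.42 (adjusted p = 0.00387). Hapln1 was at 21.9 to 38.3, 11 to 15.9, 4.11 to 15.5 and 19.3 to 24.8 CPM in the same groups, an interaction of 2.53 ± 0.53 (adjusted p = 0.00601). In the neurosphere-derived cells Vav3 had the direction of bulk (-0.93, adjusted p = 0.0109) and Hapln1 was not called (0.45, adjusted p = 0.142). Ccdc24, a coiled-coil protein gene also reversed in this direction (4.64 ± 0.42), was not called with the RSEM counts (1.43, adjusted p = 0.0634), the study's other quantification of the same reads.

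The size of the reversed class depended on the processing and on single libraries. With DESeq2 size factors it held 39 genes, 38 of them shared, and without sorted GL261 library 81 it held 108. It held 30 without bulk GL261 library 414, and 31 to 40 without bulk CT2A library 39 or 47 or any 1 sorted CT2A library. Under 8 other settings (a minimum change not among them) 10 genes stayed reversed. These, some of them chosen after their values were seen, were Eln, Slc12a3 and Rab3gap1 (lower interaction) and Itm2a, Hapln1, Vav3, Manea, Slc22a23, Arl5a and mt-Atp8 (higher). With an absolute log2 interaction of at least 1, Arl5a (0.88) loses its call. Of these, Itm2a, Slc12a3, Eln and Manea also stayed reversed whichever library was left out.

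**Figure D2:**
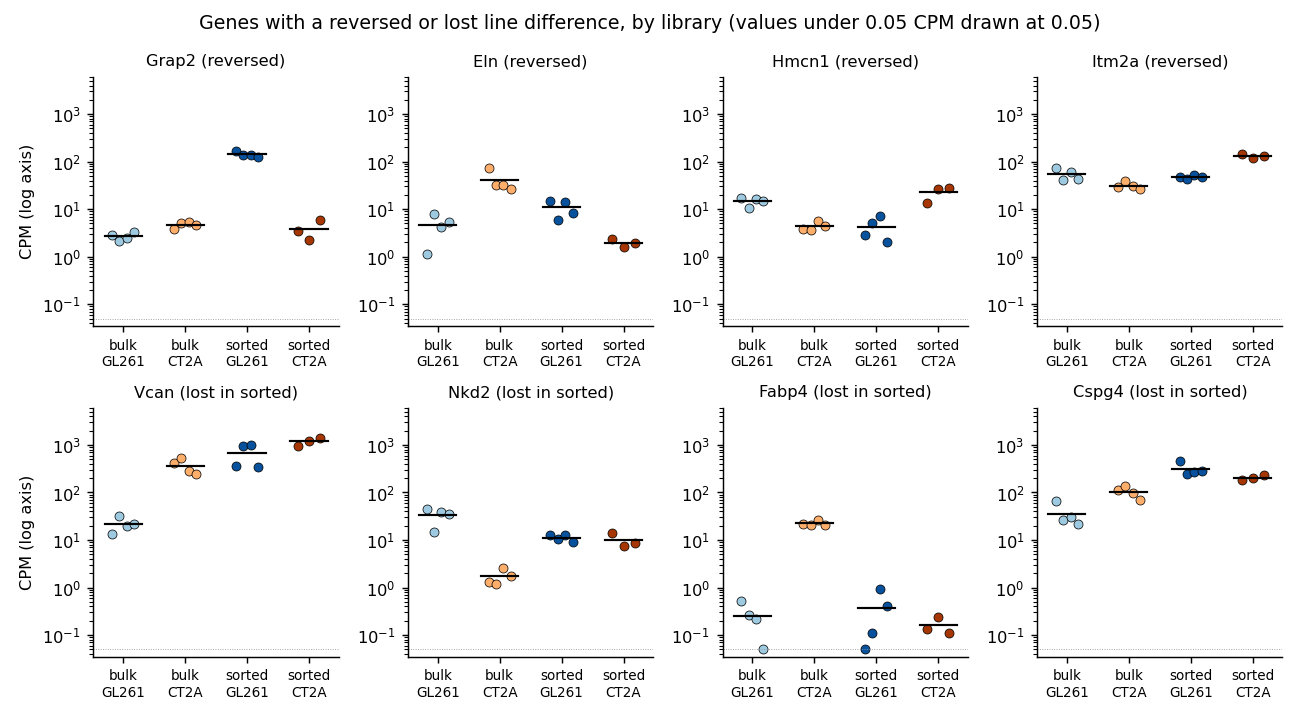
Levels of 4 reversed and 4 lost genes in every library (CPM, log axis, one point per library, horizontal bars are group means, values under 0.05 CPM drawn at 0.05). Grap2 was at 128 to 169 CPM in sorted GL261 and under 6 CPM in every other library shown, and Vcan was at 13.1 to 31.6 CPM in bulk GL261 and at 247 CPM or more elsewhere.

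Line differences lost in sorted cells included genes of proteoglycans. Vcan (chr13:89655312-89742509), which encodes versican and was named after its values were seen, neighbors Hapln1 on chromosome 13. It was at 13.1, 31.6, 20.1 and 21.7 CPM in bulk GL261 and 412, 529, 278 and 247 CPM in bulk CT2A. In sorted cells it was at 369, 959, 990 and 346 CPM in GL261 and 950, 1234 and 1369 CPM in CT2A. The bulk groups were far apart, while sorted GL261 libraries 82 and 83 overlapped with sorted CT2A. The difference of 4.08 ± 0.42 in bulk (adjusted p = 8.6e-06) became 0.83 ± 0.40 (adjusted p = 0.105), an interaction of -3.25 ± 0.57 (adjusted p = 0.00214), with sorted minus bulk at 4.94 in GL261 (adjusted p = 2.73e-06) and 1.69 in CT2A (adjusted p = 0.00462). In neurosphere-derived cells Vcan did not pass the test either (0.21, adjusted p = 0.54). Cspg4, the proteoglycan NG2, also chosen after its values were seen, was 22.1 to 65.2 CPM in bulk GL261, 68.8 to 136 CPM in bulk CT2A, 243 to 470 CPM in sorted GL261 and 186 to 236 CPM in sorted CT2A, with an interaction of -2.14 ± 0.48 (adjusted p = 0.00879).

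Nkd2, an intracellular inhibitor of WNT signaling, lost a difference of the other sign. Its levels were 44.8, 14.9, 39.1 and 35.6 CPM in bulk GL261 and 1.31, 1.21, 2.58 and 1.75 CPM in bulk CT2A. In sorted cells they were 12.6, 10.3, 12.5 and 8.95 CPM in GL261 and 13.9, 7.36 and 8.68 CPM in CT2A. The bulk groups did not overlap and the sorted groups did. GL261 was lower in sorted cells (-1.60, adjusted p = 0.00141) and CT2A higher (2.53, adjusted p = 0.000266), with an interaction of 4.14 ± 0.50 (adjusted p = 0.000163). Tinagl1, a matrix protein gene, was among the 19 whose difference was larger in bulk (-6.07 ± 0.42, against -3.25 ± 0.44 in sorted cells). It was at 338, 118, 234 and 274 CPM in bulk GL261 and 13.9, 22.6, 33.4 and 38.4 CPM in sorted GL261, against 2.52 to 4.80 CPM in bulk and 2.12 to 3.93 CPM in sorted CT2A.

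Fabp4, a fatty acid carrier of adipocytes and some endothelial cells and macrophages, exceeded 1 CPM in bulk CT2A alone among these groups. It was at 22, 20.5, 26.7 and 21 CPM there and at 0.0273 to 0.515 CPM in bulk GL261, 0 to 0.938 CPM in sorted GL261 and 0.113 to 0.245 CPM in sorted CT2A. The bulk difference was 6.42 ± 0.71 and the interaction -7.50 ± 1.24 (adjusted p = 0.00142). Endothelial scores were 3.82 to 4.33 in bulk CT2A and 4.39 to 4.71 in bulk GL261, and macrophage scores overlapped. Their part in the result was not tested. Car3, a carbonic anhydrase of fat and muscle, followed Fabp4 with 12.8 to 15.3 CPM in bulk CT2A and at most 0.515 CPM in the other groups, but was not called with the RSEM counts (-1.12, adjusted p = 0.881).

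Pseudogenes took a larger share of the lost class than of others, 26 of 173 (15.0%), against 4.11% of genes without an interaction and 1.95% of masked genes. A processed pseudogene is a copied mRNA whose reads can be shared with its parent gene, and shorter reads are harder to place. Gm10443 had no read in bulk GL261, 18.3 to 28.2 CPM in bulk CT2A, 25.2 to 58.6 CPM in sorted GL261 and 32.9 to 55.7 CPM in sorted CT2A, and was at least 308-fold higher in bulk CT2A than in bulk GL261. Gm28439 had no read in bulk CT2A and 25.8 to 329 CPM in bulk GL261. Neither kept its interaction with the RSEM counts (-1.18, adjusted p = 0.159, and 2.14, adjusted p = 0.0886). Of the 26 lost pseudogenes 1 was called in the same direction with the RSEM counts, against 105 of 147 other lost genes. None of 5 reversed pseudogenes entered the RSEM test, while 49 of 56 other reversed genes were called there in the same direction. Single values of pseudogenes are therefore uncertain.

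The line difference of some Hox genes was smaller in sorted cells than in bulk. Of 22 Hox genes tested, 7 had a lower interaction and none a higher one, with a median of -0.18 against 0.17 for all genes, while the list's median line difference was 2.03 in bulk and 2.37 in sorted cells. All 7 differences were larger in bulk, and 6 of the genes, Hoxc10, Hoxc9, Hoxc8, Hoxc6, Hoxc5 and Hoxc4, lie together on chromosome 15 (chr15:102966796-103036852). Of the 7, Hoxc4, Hoxc5, Hoxc8 and Hoxa7 were named after their values were seen. Hoxc10 was at 44.3, 41.2, 28.4 and 29.8 CPM in bulk CT2A and 78.7, 71.9 and 65.6 CPM in sorted CT2A. In bulk GL261 a single read was counted, in library 414 (0.0273 CPM). In sorted GL261 it was at 8.46, 7.78, 6.03 and 9.47 CPM, and in neurosphere-derived GL261 at 3.16, 6.80 and 7.43 CPM, so that all 7 libraries of sorted GL261 cells held it. The fitted interaction was -8.17 ± 0.51 (adjusted p = 6.24e-07). Against groups at or near 0 such sizes depend on the prior count of the fit.

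The other members of the run behaved alike. Hoxc9 had no read in bulk GL261 and was at 0.823, 1.10, 1.07 and 0.926 CPM in sorted GL261, at least 12.6-fold higher, beside 7.72 to 13.4 CPM in bulk CT2A and 14.3 to 16.3 CPM in sorted CT2A. Hoxc4 was at 0 to 0.0273 CPM in bulk GL261 and 0.767 to 2.01 CPM in sorted GL261, and Hoxc6 at 0 to 0.0820 and 0.353 to 3.40 CPM. Their annotated transcripts overlap, so reads of neighbors may be shared. Hoxc11 and Hoxc13, 2 genes of the cluster beyond Hoxc10, and Gtsf1 were also named after their values were seen. Hoxc11 was at 20.4 to 36.2 CPM in bulk CT2A and 39.0 to 51.7 CPM in sorted CT2A, but at 0 to 0.0547 CPM in bulk GL261 and 0 to 0.103 CPM in sorted GL261. Hoxc13 was at 2.10 to 4.59 CPM in bulk CT2A and 5.70 to 6.54 CPM in sorted CT2A and had no read in either GL261 group. Gtsf1, a germline gene of the piRNA pathway that lies near the cluster (chr15:103402405-103430470), was at 0 to 0.164 CPM in bulk GL261 and at 19 to 32.4 CPM in sorted GL261, 8.08 higher (adjusted p = 1.27e-06), and at most 0.133 CPM in CT2A of either kind. Its interaction was -7.39 ± 2.76 (adjusted p = 0.0908), and it was called with DESeq2 (adjusted p = 0.00011) and with the RSEM counts (adjusted p = 0.0325). Hoxa7, the other member called, lost its call without any 1 of the sorted CT2A libraries (adjusted p 0.0563 to 0.0636).

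Genes masked in bulk were higher in sorted CT2A in 835 cases and lower in 398. Of the 835, 586 were lower in sorted than in bulk GL261 by the test within that line (26.7% of all genes), 338 were higher in sorted than in bulk CT2A (21.0%), and 100 were both. Their median line difference was 0.08 in bulk and 1.43 in sorted cells. Of the 398, 267 were lower in sorted than in bulk CT2A (19.6%), 167 were higher in sorted than in bulk GL261 (19%), and 42 were both. Without sorted CT2A library 69 or 70 the class held 807 or 817 genes.

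Several genes that neurons or glia also express were nearly absent from sorted GL261 cells and present in sorted CT2A. Egfr, the epidermal growth factor receptor (chr11:16752203-16918158), was at 3.74, 20.4, 9.74 and 10.7 CPM in bulk GL261 and 16.5, 20.1, 16.7 and 19.4 CPM in bulk CT2A. In sorted cells it was at 0.353, 0.329, 0.670 and 0.617 CPM in GL261 and 40.4, 46.7 and 40.3 CPM in CT2A. The bulk groups overlapped and the sorted groups were 85.5-fold apart. The interaction was 5.71 ± 0.60 (adjusted p = 5.61e-05). Robo2, a Slit receptor of axon guidance, was at 4.48, 73.5, 37.1 and 26.3 CPM in bulk GL261 and 47.9 to 66.0 CPM in bulk CT2A, against 0 to 0.658 CPM in sorted GL261 and 73.1 to 90.4 CPM in sorted CT2A. Epdr1, a secreted ependymin relative, was at 6.78, 76.3, 36.7 and 25.1 CPM in bulk GL261 and 64.2 to 74.3 CPM in bulk CT2A, against 0 to 0.670 CPM and 111 to 120 CPM in the sorted groups. Their interactions were 7.43 ± 1.03 and 7.15 ± 0.90. Within bulk GL261 all 3 genes were lowest in library 405 and highest in library 412, as was the neuron score (4.33 in 405, 8.19 in 412, 7.28 in 414 and 6.76 in 417). Astrocyte (5.60 and 7.74), oligodendrocyte (4.96 and 7.37) and microglia (4.65 and 5.66) scores were likewise lowest in 405 and highest in 412. The macrophage score was not (5.73 and 5.43). The part of host cells in the result was not tested.

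Other masked genes were of the matrix or imprinted. Thbs2, which encodes the matrix protein thrombospondin 2, was at 167, 95.3, 176 and 154 CPM in bulk GL261 and 149, 237, 192 and 127 CPM in bulk CT2A. It was at 22.8, 28.0, 46.6 and 36.4 CPM in sorted GL261 and 625, 551 and 703 CPM in sorted CT2A, an interaction of 3.98 ± 0.37 (adjusted p = 2.53e-05). Its bulk groups overlapped and its sorted groups were 18.7-fold apart. In the opposite direction, Acan, the cartilage proteoglycan aggrecan (chr7:79053483-79115099), was at 0.711 to 2.53 CPM in bulk GL261 and 0.933 to 2.19 CPM in bulk CT2A. It was at 58.9, 61.5, 53.2 and 50.4 CPM in sorted GL261 and had no read in any sorted CT2A library, at least 152-fold lower. Peg3, an imprinted zinc finger gene, was at 93.1, 511, 228 and 143 CPM in bulk GL261, 59.6 to 186 CPM in bulk CT2A and 90.8 to 122 CPM in sorted GL261, but at 0.663, 0.736 and 1.24 CPM in sorted CT2A (interaction -5.96 ± 0.82, adjusted p = 0.000384). Snx22, a sorting nexin chosen after its values were seen, likewise went from 36.1 to 47.8 CPM in bulk CT2A to 0.368 to 0.451 CPM in sorted CT2A, at 29.5 to 75.5 CPM in GL261 of either kind.

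**Figure D3:**
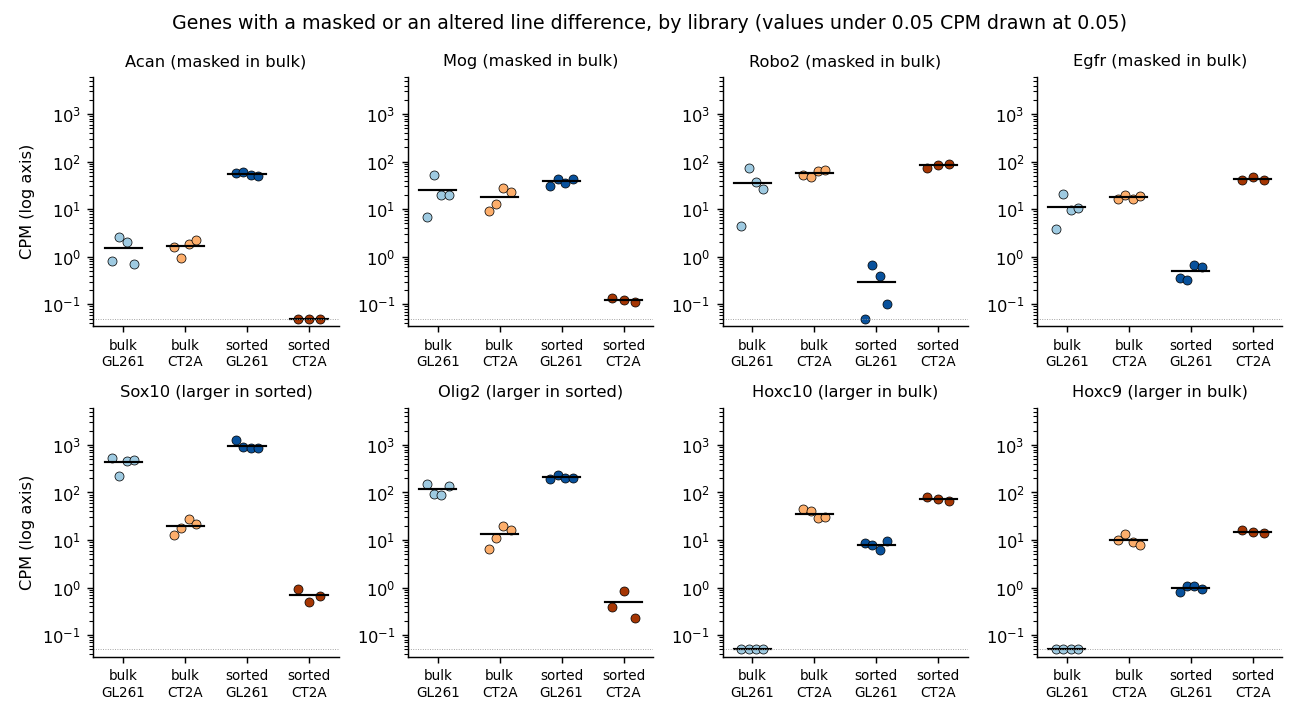
Levels of 4 genes masked in bulk, 2 with a line difference larger in sorted cells and 2 with one larger in bulk, in every library (CPM, log axis, one point per library, horizontal bars are group means, values under 0.05 CPM drawn at 0.05). Robo2 and Egfr were under 1 CPM in every sorted GL261 library and above 3 CPM in every bulk one, and Hoxc10 was at 6.03 to 9.47 CPM in sorted GL261.

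Lists of genes of known function were counted in the same fit and read against 8.76% higher and 5.59% lower among all genes. Oligodendrocyte progenitor genes had 10 of 12 tested lower and none higher, and a median interaction of -3.22. Sox10, the transcription factor of the oligodendrocyte lineage, was at 543, 221, 455 and 494 CPM in bulk GL261 and 12.4, 17.5, 27.8 and 21.4 CPM in bulk CT2A. In sorted cells it was at 1258, 922, 848 and 854 CPM in GL261 and 0.928, 0.491 and 0.676 CPM in CT2A. The groups never overlapped, and the ratio of the lines went from 21.6 in bulk to 1385 in sorted cells (interaction -6.00 ± 0.53, adjusted p = 1.66e-05). Olig2, its partner in that lineage, went from 6.55 to 19.6 CPM in bulk CT2A to 0.226 to 0.859 CPM in sorted CT2A (interaction -5.57 ± 0.57). Olig1 (-5.20 ± 0.42) and the receptor gene Gpr17 (-9.59 ± 0.99) moved with them. Cspg4 and Vcan, also of this list, were lost in sorted cells, and Gpr17 and Lhfpl3 were under 0.5 CPM in every sorted CT2A library.

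Genes of mature oligodendrocytes, which make myelin, had 4 of 12 lower, 1 higher and a median of -2.14. Mog, a myelin glycoprotein, was at 6.75, 53.5, 19.6 and 20.3 CPM in bulk GL261 and 8.99, 12.6, 27.4 and 23 CPM in bulk CT2A. It was at 31.3, 42.6, 36.3 and 43.4 CPM in sorted GL261 and 0.133, 0.123 and 0.113 CPM in sorted CT2A, so that sorted GL261 lay within its range in bulk and sorted CT2A below every other library shown (interaction -7.74 ± 1.02, adjusted p = 0.000273). Cnp, a myelin enzyme, was at 238 to 367 CPM in sorted GL261 and 18.9 to 25.3 CPM in sorted CT2A (interaction -2.63 ± 0.43). Aspa, which cleaves N-acetylaspartate and was named after its values were seen, went the other way (3.66 ± 0.95, adjusted p = 0.0199), with 0.118 to 1.07 CPM in sorted GL261 and 8.34 to 11.7 CPM in sorted CT2A. The oligodendrocyte score was 4.96 to 7.37 in bulk GL261, 4.97 to 6.48 in bulk CT2A, 3.98 to 4.92 in sorted GL261 and 2.67 to 2.92 in sorted CT2A. The count of lower genes was 7 with DESeq2 and 7 without bulk GL261 library 412.

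Interferon-stimulated genes and their regulators, which carry the cell's response to interferons, had 18 of 78 lower and none higher. Their median interaction was -0.71, and the direction was below 0 for 62 of 78. The lines already differed in bulk, with 52 of 78 lower and 2 higher in CT2A (all genes 19.7% and 9.14%), and in sorted cells 67 were lower and 3 higher (all genes 24.5% and 22%). Stat2, a transcription factor of the type I interferon response, was at 282, 214, 345 and 351 CPM in bulk GL261 and 73.7, 66.5, 121 and 77.3 CPM in bulk CT2A. It was at 505, 321, 302 and 433 CPM in sorted GL261 and 25.8, 26.1 and 39.6 CPM in sorted CT2A, so that the groups were apart in both and the gap widened (interaction -1.86 ± 0.36, adjusted p = 0.00372). The difference within CT2A was called (-1.47, adjusted p = 0.000996) and that within GL261 was not (0.39, adjusted p = 0.194). Igtp (-2.37 ± 0.54) and Irgm1 (-1.64 ± 0.43), immunity-related GTPases named after their values were seen, and Gbp10 (-4.97 ± 0.97), a guanylate-binding protein, moved alike. Irgm1 missed the threshold without sorted CT2A library 69 or 70 (adjusted p = 0.0591 and 0.0575), and the list's count was then 9 and 7. It was 28 with DESeq2. From exome sequencing the study also reported single-copy loss, in CT2A-luc, of a segment holding Stat2 and the interferon-gamma gene Ifng. In the window of neighboring genes around Stat2 (chr10:100572265-130456050) the median line difference was -0.53 in bulk and -0.88 in sorted cells. The median interaction there was -0.15. The part of copy number in the values of either gene was not tested.

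Values of immune cells moved beside these genes. The T and NK cell score was 1.73 to 2.49 in bulk GL261, 1.33 to 2.13 in bulk CT2A, 0.708 to 1.47 in sorted GL261 and 0.404 to 0.604 in sorted CT2A, where 6 of its 16 markers, Prf1 and Nkg7 among them, were under 0.5 CPM in every library. None of the 15 members tested had an interaction called in edgeR (6 at an unadjusted p under 0.05, and 3 called with DESeq2). Ifng, the gene of interferon-gamma, was at 0.587 to 1.80, 0.373 to 1.69, 1.06 to 4.94 and 0.113 to 0.613 CPM in the same groups (interaction -2.89 ± 0.99, adjusted p = 0.0648). It passed the threshold with DESeq2 (adjusted p = 0.0267), the length offset (0.0263), the RSEM counts (0.0394) and without bulk GL261 library 405 (0.0394), bulk CT2A library 40 (0.0436) or sorted GL261 library 81 (0.0369). The part of these cells in the interferon genes' result was not tested.

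The promoters of Stat2, Irgm1 and Igtp are shown because their RNA moved together and because interferon-activated factors bind a known element that contains GAAANNGAAA (N is any base). The sequences are RefSeq windows of the GRCm38.p6 build, 250 bases before to 50 after the gene's start, 5' to 3' on the gene's strand, with matches on either strand in capitals. They lie at chr10:128270248-128270547 (+), chr11:48871371-48871670 (-) and chr11:58199306-58199605 (+).
Stat2: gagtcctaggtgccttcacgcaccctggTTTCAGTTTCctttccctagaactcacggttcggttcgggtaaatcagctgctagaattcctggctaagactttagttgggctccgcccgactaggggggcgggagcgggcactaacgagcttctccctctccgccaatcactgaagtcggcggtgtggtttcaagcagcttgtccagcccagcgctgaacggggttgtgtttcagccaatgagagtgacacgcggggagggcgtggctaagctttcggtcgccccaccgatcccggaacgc
Irgm1: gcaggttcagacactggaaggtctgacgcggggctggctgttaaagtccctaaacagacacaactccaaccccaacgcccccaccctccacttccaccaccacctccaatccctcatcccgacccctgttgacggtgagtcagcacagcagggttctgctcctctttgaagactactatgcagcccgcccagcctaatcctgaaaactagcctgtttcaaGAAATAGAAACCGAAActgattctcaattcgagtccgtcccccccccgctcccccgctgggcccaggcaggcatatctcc
Igtp: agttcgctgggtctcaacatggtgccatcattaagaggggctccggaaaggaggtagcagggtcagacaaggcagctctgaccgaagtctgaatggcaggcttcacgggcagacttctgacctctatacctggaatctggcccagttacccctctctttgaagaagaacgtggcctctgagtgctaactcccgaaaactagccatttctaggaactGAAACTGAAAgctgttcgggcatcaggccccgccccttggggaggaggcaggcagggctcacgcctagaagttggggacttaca
Stat2 had 1 match, read on the opposite strand, Irgm1 had 2 that overlap and Igtp had 1. A window was found for 11 of the 18 interferon genes called, and 7 of these held the motif (63.6%). Among the interferon genes not called it was 24 of 45 (53.3%), and among all genes tested 466 of 11806 (3.95%). The difference between called and uncalled genes of the list was not tested, and a match is a description of letters only.

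MHC class II genes, which present antigen to CD4+ T cells, had 4 of 11 lower, none higher and a median of -1.08. H2-DMa was at 29.8 to 65.6 CPM in bulk GL261, 21.4 to 34.3 CPM in bulk CT2A, 109 to 185 CPM in sorted GL261 and 13.5 to 27.8 CPM in sorted CT2A (interaction -2.10 ± 0.43, adjusted p = 0.00521). H2-DMb2 had no difference called in bulk (-0.27, adjusted p = 0.654) and a line difference of -3.35 ± 0.44 in sorted cells. In both, GL261 rose in sorted cells (1.64 and 2.79) and CT2A did not pass the test. The list's count was 2 without sorted CT2A library 69 or 70. Of 23 genes of MHC class I presentation 3 were lower, among them H2-T23 (-1.55 ± 0.39), and 1 was higher, H2-Q7 (1.81 ± 0.55, adjusted p = 0.0418). Its call was lost with DESeq2 size factors (adjusted p = 0.0686) and without any 1 of 10 libraries (adjusted p 0.0559 to 0.0998).

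Hypoxia and glycolysis genes had 8 of 33 lower, none higher, and a median of -0.81, with 28 of 33 below 0. Adm, the hypoxia-induced peptide adrenomedullin, was at 3.68 to 5.22 CPM in bulk GL261 and 1.78 to 4.26 CPM in bulk CT2A. It was at 135, 47.8, 56.5 and 87.9 CPM in sorted GL261 and 1.32, 0.613 and 0.113 CPM in sorted CT2A (interaction -6.28 ± 0.70, adjusted p = 7.84e-05). The bulk groups overlapped and the sorted groups were 122-fold apart. The glycolytic genes Pfkfb3 (-1.73 ± 0.23) and Tpi1 (-1.44 ± 0.28) had the same direction. Slc2a1, the glucose transporter GLUT1, named after its values were seen, was at 520 to 848 CPM in sorted GL261 and 59.0 to 110 CPM in sorted CT2A (-1.63 ± 0.34). Vegfa, the vascular growth factor, had -1.53 ± 0.40 (adjusted p = 0.0217) and missed the threshold without sorted CT2A library 70 or 71 (adjusted p = 0.0523 and 0.0555). The list's count was 17 with DESeq2, 18 without bulk GL261 library 405 and 5 without sorted CT2A library 70.

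WNT pathway genes moved the other way, with 16 of 50 higher and 2 lower (median 0.47). Wnt5a, a noncanonical ligand, was at 4.92, 10.4, 7.36 and 6.18 CPM in bulk GL261 and 55.7, 61.8, 42.1 and 37.8 CPM in bulk CT2A. It was at 0.940 to 1.85 CPM in sorted GL261 and 114, 118 and 119 CPM in sorted CT2A, so that the ratio of the lines went from 6.84 to 82.6 (interaction 3.59 ± 0.37, adjusted p = 3.82e-05). Among antagonists, Sfrp4 went from 15.1 to 26.3 CPM in bulk CT2A to 81.1 to 91.6 CPM in sorted CT2A (5.51 ± 0.94). Among receptors, Fzd6 went the opposite way, at 31.9 to 63.3 CPM in sorted GL261 and 0.795 to 2.25 CPM in sorted CT2A (-3.75 ± 0.49).

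Cadherin, connexin and guidance genes had 17 of 57 higher and 6 lower, with a median of 1.05. Robo2 was among them, as was Unc5b, a netrin receptor, at 1.29 to 2.01 CPM in sorted GL261 and 512 to 629 CPM in sorted CT2A, against 8.37 to 29.2 and 227 to 432 CPM in bulk (4.15 ± 0.52). Sema3e, a guidance ligand, was lower (-4.03 ± 0.50). The median difference of this list between sorted and bulk samples was -2.35 in GL261 and -0.65 in CT2A.

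Growth factors and their receptor kinases had 14 of 57 higher and 8 lower (median 0.71). Beside Egfr, Pdgfrb, a receptor of platelet-derived growth factor, was higher (3.42 ± 0.33), at 3.29 to 7.77 CPM in sorted GL261 and 371 to 428 CPM in sorted CT2A. Erbb3 (-4.91 ± 0.78) and Kit (-4.64 ± 0.61), other receptor kinases, were lower, with 0.398 to 0.981 CPM and 0.530 to 2.48 CPM in sorted CT2A.

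Collagen genes moved in both directions, with 8 of 40 higher and 9 lower (median -0.16). Among the higher were Col4a1 of basement membranes (2.93 ± 0.34) and Col5a2 of fibrils (3.98 ± 0.41). Among the lower were the cartilage chains Col2a1 (-3.78 ± 0.73), Col9a2 (-4.86 ± 0.63) and Col9a3 (-5.44 ± 0.59). Col2a1 was at 143 to 965 CPM in bulk GL261, 1921 to 3305 CPM in sorted GL261 and under 4 CPM in every CT2A library. The wider list of matrix and mesenchymal transition genes had 10 of 56 higher and 7 lower, a median of 0.19 and thus near that of all genes.

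**Figure D4:**
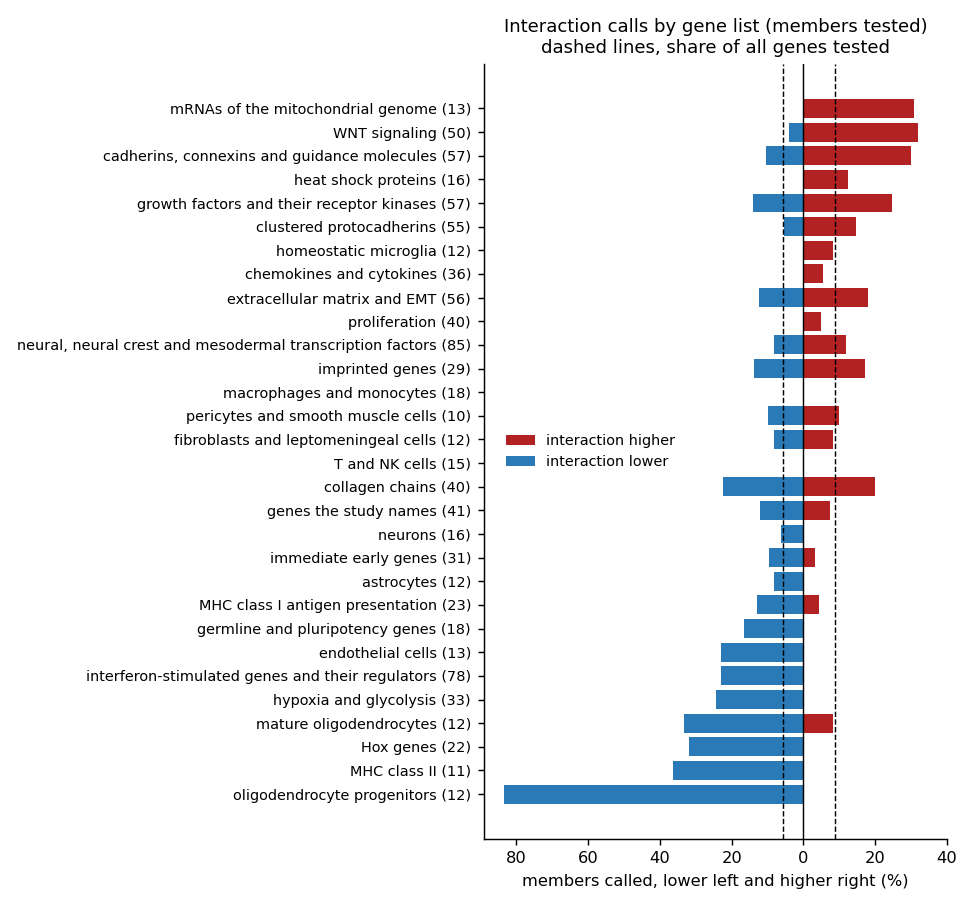
Share of the tested members of each gene list (y axis, number tested in parentheses) whose interaction was called lower (left, blue) or higher (right, red), in percent (x axis), with dashed lines at the shares of all genes, 5.59% lower and 8.76% higher. Oligodendrocyte progenitor, MHC class II and mature oligodendrocyte genes lie farthest to the left, and mitochondrial, WNT and adhesion genes to the right.

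The lists that follow were chosen for possible change between sublines of one tumor. All but the germline and pluripotency list had calls in both directions. Of 29 imprinted genes 5 were higher and 4 lower. The higher ones included Mest (2.14 ± 0.40) and Peg10 (2.73 ± 0.53), both expressed from the paternal copy and masked in bulk, and Igf2r (3.56 ± 0.55), from the maternal copy. The lower ones included Peg3, Plagl1 (-2.36 ± 0.47) and Igf2 (-3.42 ± 0.77), paternally expressed as well. Of 55 clustered protocadherins, whose promoters are chosen at random in single cells and then kept, 8 were higher and 3 lower. Pcdhb3 was at 42.1 to 49.6 CPM in sorted CT2A and at most 0.206 CPM in sorted GL261 (6.73 ± 0.99), and Pcdhga6 was at 22.5 to 51.2 CPM in sorted GL261 and at most 1.35 CPM in sorted CT2A (-4.54 ± 0.66). Germline and pluripotency genes had 3 of 18 lower, such as the X-linked Xlr3b (-4.33 ± 0.97), and none higher. Of 85 transcription factors of neural, neural crest and mesodermal cells 10 were higher, Emx2 (5.80 ± 0.83) and Sox9 (3.94 ± 0.53) among them, and 7 lower.

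Messenger RNAs of the mitochondrial genome all had an interaction above that of the median gene, from 0.63 to 1.68, and 4 of 13 were called. mt-Atp8, a subunit of ATP synthase, was at 963, 1360, 813 and 871 CPM in bulk GL261 and 491, 436, 505 and 592 CPM in bulk CT2A. It was at 1217, 1414, 1626 and 1250 CPM in sorted GL261 and 1902, 2123 and 2418 CPM in sorted CT2A, reversed with no overlap in either kind (1.63 ± 0.26, adjusted p = 0.00114). The list's median was -0.67 in bulk, 0.32 in sorted cells and 0.58 in neurosphere-derived cells. Its count was 2 with DESeq2 size factors and 2 without any 1 of bulk GL261 library 417, bulk CT2A library 39 or 40, sorted GL261 library 84 or any sorted CT2A library.

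Markers of other host cells were counted as well. None of 18 macrophage, 15 T and NK cell, 8 dendritic cell, 5 neutrophil and 5 erythroid genes tested was called, and 1 each of 16 neuron (Tubb3, -1.24), 12 astrocyte (S100b, -2.63) and 4 B cell (Pax5, -3.77) genes was lower. The call of Tubb3 was lost without any 1 of 7 libraries (adjusted p 0.0501 to 0.0832), and that of Pax5 without sorted CT2A library 70 or 71 (0.0521 and 0.0527). Of the other lists with none called in edgeR, 1 macrophage, 1 neutrophil, 1 erythroid and 0 dendritic cell genes had an unadjusted p under 0.05, and DESeq2 called 0. The interaction was above 0 for 18 of 18 macrophage genes (median 0.45, lowest 0.15) and 11 of 12 microglia genes (median 1.37), and below 0 for 13 of 15 T and NK cell genes (median -1.53), against a median of 0.17 for all genes. Of 12 microglia genes 1 was higher, Olfml3 (1.32 ± 0.36), whose call was lost without sorted CT2A library 70 or 71 (adjusted p = 0.0501 and 0.0637). Endothelial genes had 3 of 13 lower and a median of -1.25, with scores of 3.66 to 5.32 in sorted GL261 and 2.63 to 3.50 in sorted CT2A. Pericyte, fibroblast and ependymal genes had 1 of 10 (Pdgfrb), 1 of 12 (Ogn) and 1 of 7 (Aqp1) higher, and 1 (Tagln), 1 (Igf2) and none lower. The call of Ogn was lost without sorted CT2A library 70 (adjusted p = 0.0581). Immediate early genes, which respond to dissociation, had 1 of 31 higher and 3 lower, and heat shock genes 2 of 16 higher, Dnaja1 (1.34 ± 0.19, reversed in this fit and in 5 of 8 other settings) and Hspa8 (0.88 ± 0.21, not called with the RSEM counts, adjusted p = 0.0672). Proliferation genes had 2 of 40 higher, the cyclins Ccne1 (1.02 ± 0.26) and Ccne2 (2.21 ± 0.41). The call of Ccne1 was lost without bulk GL261 library 405 (adjusted p = 0.093) or sorted CT2A library 69 (adjusted p = 0.0517). Chemokine and cytokine genes had 2 of 36 higher, among them Cx3cl1 (4.72 ± 0.89), and none lower.

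Of 41 tested genes that the study names, 3 were higher and 5 lower. The higher ones included Egfr and the phosphatase Ptpn11 (0.82 ± 0.20). Lower were Stat2, Vegfa, Stat3 (-1.35 ± 0.26), Cd274, the gene of PD-L1 (-1.82 ± 0.53, adjusted p = 0.034), and Cdkn2b. The call of Cd274 was lost when any 1 of 8 libraries was left out (adjusted p 0.0529 to 0.0907). Cdkn2b, an inhibitor of cyclin-dependent kinases (chr4:89306299-89311039), was at 18, 4.95, 12.0 and 15.5 CPM in bulk GL261 and 0.843, 1.68, 1.07 and 1.14 CPM in bulk CT2A. It was at 13.2 to 18.6 CPM in sorted GL261 and had no read in sorted CT2A, at least 41.1-fold lower, so that the trace in bulk CT2A was absent from its sorted cells.

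Genes absent from the bulk tumors of a line (under 0.5 CPM in every library) but present in its sorted cells (at least 5 CPM in every library) numbered 32 in GL261 and 16 in CT2A. Protein-coding genes were 6 of the 32, with Hoxc10 and Gtsf1 among them, and 1 of the 16, and the others were pseudogenes. An interaction was called for 11 of the 32 and 1 of the 16, beside 14.4% of all genes tested. With the RSEM counts 2 and none of these called genes kept the call. Genes present in every bulk library and absent from every sorted one numbered 28 in GL261 and 103 in CT2A, with 26 and 99 protein-coding. The interaction was called for 2 and 17 of them, and for 1 and 13 also with the RSEM counts. The 2 of 28 were below and the 17 of 103 near the share of all genes tested. The 17 included Snx22, Mog, Gpr17, Fabp4 and Myo1h, a myosin chosen after its values were seen, at 32.6 to 39.6 CPM in bulk CT2A and 0.338 to 0.491 CPM in sorted CT2A. Without bulk GL261 library 405 the 28 became 203, and without bulk CT2A library 40 the 103 became 226.

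Interactions also grouped by chromosome. Relative to the autosomes as a whole, the median interaction was 0.40 ± 0.07 on chromosome 3, 0.27 ± 0.02 on chromosome 4, 0.23 ± 0.05 on chromosome 13 and 0.20 ± 0.06 on chromosome 19. It was -0.45 ± 0.08 on chromosome 14. The ± value is the SD between libraries, scaled by the number of libraries in each group to an error of the interaction. On chromosomes 3, 14 and 19 the line difference had the same sign in bulk and was larger in sorted cells (0.41 and 0.79, -0.31 and -0.76, 0.32 and 0.61). On chromosomes 4 and 13 bulk tumors differed by -0.06 and 0.05 and sorted cells by 0.19 and 0.27. On chromosome 4 the GL261 samples moved (-0.24 from bulk to sorted) and the CT2A samples did so by 0.03. Neurosphere-derived cells had 0.82, 0.20, 0.14, 0.57 and -0.83 on chromosomes 3, 4, 13, 19 and 14.

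In 146 windows of about 100 neighboring genes, 12 had a median above 0.4 and 7 below -0.4. The highest was at the start of chromosome 4 (chr4:3549041-40239828, 0.63), where 37 of 100 genes had a higher interaction and 1 a lower one. There the line difference was -0.31 in bulk, 0.18 in sorted cells and 0.24 in neurosphere-derived cells. Next came chr13:58233346-73937784 (0.59, 22 of 100 higher and 2 lower), with -0.0046 in bulk and 0.58 in sorted cells. The lowest was chr14:55098575-64809617 (-0.57, 18 of 100 lower and none higher), with -0.34 in bulk and -0.99 in sorted cells. Copy number was not measured in these libraries, but the study called it from exome sequencing of cultured GL261-luc2 and CT2A-luc cells. Among other changes it reported loss of chromosome 14 in GL261-luc2 and single-copy loss of segment 4qC4 in CT2A-luc. Changes of other whole chromosomes in GL261-luc2 are not listed here. On chromosome 14 CT2A, not GL261, was the lower line relative to the autosomes, at -0.31 in bulk and -0.76 in sorted cells. On chromosome 4 the line difference was -0.06 in bulk and 0.19 in sorted cells. Positions of lost segments were not compared with the windows. A link of copy number to these medians was not tested.

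**Figure D5:**
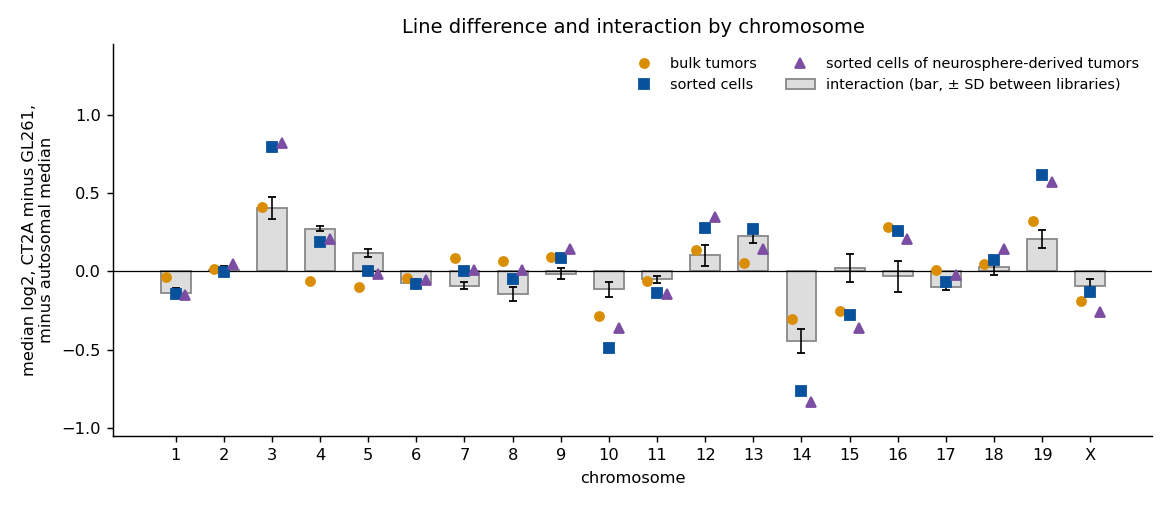
Median line difference by chromosome (CT2A minus GL261, log2, minus the autosomal median) in bulk tumors (circles), sorted cells (squares) and neurosphere-derived sorted cells (triangles). Gray bars are the median interaction (± SD between libraries, scaled by the number of libraries in each group). The bars stand above 0 on chromosomes 3, 4, 13 and 19 and at -0.45 on chromosome 14, and on chromosome 4 the circle lies below 0 (-0.06) and the square above (0.19).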

How the data were processed

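RNA was sequenced from bulk tumors and sorted tumor cells. The authors quantified reads against the mouse transcriptome with Salmon and deposited estimated counts and TPM, a length-scaled abundance, per transcript. They also deposited expected counts per gene from STAR 2.7.7a and RSEM 1.3.3, and their notes name DESeq2 1.30.1. Salmon's estimated counts were summed over 116546 transcripts to 35576 genes (180 transcripts, with 0.0413 to 0.142% of reads, matched no gene) and rounded. TPM were not used in tests. Genes with a mean normalized count over 10 in the 15 libraries were fitted together in edgeR 4.0.16 (R 4.3.3; TMM, robust quasi-likelihood), with a Benjamini-Hochberg adjusted p of 0.05. SE is the log2 change divided by the square root of F. Positions are GENCODE annotation of GRCm38.

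Named genes, with at least 10 CPM in some group, were the reversed genes with the largest changes (12 at most), the most changed of the other classes (lines not overlapping for masked and lost genes), up to 3 members a direction of each list, genes the study names, and called genes absent from bulk and present in sorted cells. Others are said to be chosen after their values were seen, and some fulfilling the rule are not reported here. Members and lists were chosen with earlier results of these data known. Strand settings of the counting are not given in the sources used here, so overlapping and antisense genes may share reads. The fit was also run on counts simulated from its own dispersions, which cannot show whether read length or library kit gives an interaction. Alternatives were DESeq2 1.42.0, its size factors, other filters, a length offset, RSEM counts, thinning to 1 depth (7593432 reads), all 6 groups, a minimum change, and leaving out each library.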

Additional observations from a re-analysis of the deposited data

Results flagged for a closer look

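By the test of the interaction, 2274 genes had a line difference that was not the same in bulk tumors as in sorted cells, as reported above.

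In single samples far from the rest of their group, Eln reached 72.9 CPM in bulk CT2A library 39, and the 1 read of Hoxc10 in bulk GL261 (0.0273 CPM) came from library 414. Neurosphere-derived CT2A library 60 stood apart with 0.0924 CPM of Acan, 0.647 CPM of Mog and 0.185 CPM of Olig2, which rest on a few reads, and with an oligodendrocyte score of 3.25. The T and NK cell score of sorted GL261 library 81 was 0.708, the lowest of its group. In bulk GL261 library 405 the fibroblast score was 3.29 and the neutrophil score 1.14. These were 9 of 180 groups checked (5%), and chance alone marks about 1 group in 20.

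The RSEM tables hold genes, many of them long noncoding RNAs, that the Salmon tables lack. Of 1699 such genes tested, 114 had an interaction called in edgeR, 63 higher and 51 lower. This is 6.71%, against 12.2% of all 17671 genes tested with RSEM.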

How the results depend on the processing

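The interaction was called for 1759 genes (no minimum count) to 2735 (DESeq2), and for 1531 to 2854 when 1 library was left out. With an absolute log2 interaction of at least 1 the lost class held 101 genes and the class called in neither 12. The reversed class held 39 genes with DESeq2 size factors, 36 with no minimum count and 33 with the length offset. The class larger in bulk held 29 with DESeq2 and 33 with all 6 groups in 1 fit, and the class called in neither 5 with size factors and 15 after thinning. Without 1 library the masked class held 807 to 1548 genes, the lost class 106 to 278, the reversed class 30 to 108, the class larger in bulk 14 to 56, and the class called in neither 3 to 33.

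Genes absent from bulk and present in sorted GL261 numbered 20 with both thresholds doubled and 68 with RSEM, and those in CT2A 63 with RSEM. The median of chromosome 4 was 0.30 with RSEM and 0.29 for genes of a mean count above 100, and 0.267 to 0.295 without 1 library. That of chromosome 13 was 0.306 with RSEM and 0.216 to 0.285 without 1 library. With RSEM the interaction changed sign for the pseudogenes or copies Rps3a2 (2.08), Gm10182 (8.81), Gm6871 (-1.02), Gm10288 (0.0774), Gm8116 (0.447) and Gm9892 (0.0887), and for Hoxc11 (-2.23). Without 1 library Gm10288 was at -6.44 to 1.65 (1.65 without bulk CT2A library 40). Hoxc11 was at -0.38 and Hoxc13 at -1.25 with DESeq2, and Hoxc11 was at -0.53 to 2.54 without 1 library, below 0 without bulk GL261 library 417 or sorted GL261 library 81, 82 or 83. Both genes are near 0 in GL261. Of 148 genes followed, 114 kept their direction and side of the threshold under every other setting and 121 whichever library was left out. The cause of these changes was not tested.

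No paired analysis was possible because the groups share no replicate numbers. Depth limits genes under about 0.3 CPM, and bulk GL261 was sequenced more deeply than the other groups.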

Other observations

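Some long noncoding RNAs, measured with the RSEM counts alone and chosen after their values were seen, had line differences that depended on the kind of sample. The imprinted RNAs Mirg, Rian, Airn and Meg3 had no interaction called in edgeR (adjusted p 0.245 to 0.752). H19, an imprinted RNA expressed from the maternal copy, was lower in CT2A in both kinds of sample, with -5.59 ± 0.37 in bulk and -8.97 ± 0.50 in sorted cells (interaction -3.38 ± 0.48, adjusted p = 0.00055). Kcnq1ot1, a paternally expressed antisense RNA that silences neighboring imprinted genes, was masked in bulk, at 0.28 ± 0.32 there and 3.79 ± 0.41 in sorted cells (interaction 3.52 ± 0.52). Emx2os, antisense to Emx2, was higher in CT2A by 1.83 ± 0.51 in bulk and 8.11 ± 0.88 in sorted cells (interaction 6.28 ± 1.09), as Emx2 itself was by 1.94 ± 0.44 and 7.74 ± 0.69 with the Salmon counts. Reads of the pair cannot be told apart where the counting ignores strand.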
